A study of Danio rerio with 6 samples.

Results

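The voltage-gated and potassium channel genes were taken by symbol from a gene table of zebrafish embryo heads. Every gene whose symbol began with scn and a digit, cacna, cacnb, cacng, kcn or hcn was a member, kcnj8 excepted. This gave 181 of the 32057 genes in the table, carrying 176 distinct symbols: 14 sodium channel, 50 calcium channel, 111 potassium channel and 6 hyperpolarization-activated (HCN) channel genes. The rule used names and no measured value, though it was set with earlier results of these data known. Poly(A) RNA was sequenced from heads at 2 days post-fertilization (dpf) in 2 groups of 3 biological replicates, each replicate a pool of 150 heads. The 6PPD group had been held in 500 µg/L 6PPD, an antioxidant used in tire rubber, since 10 hours post-fertilization (hpf), and the DMSO group in the solvent. All embryos of both groups were kept in egg water with methylene blue, at 28 °C before 24 hpf, and received the pigment inhibitor PTU (0.003%) from 24 hpf; neither strain nor genotype is named in the labels. The labels call the tissue brain, while whole heads were dissected, so eye, skin, ear and cranial muscle were measured with the brain.

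Voltage-gated sodium channels open on depolarization and carry the upstroke of the action potential. Voltage-gated calcium channels turn the same depolarization into calcium entry, which releases transmitter at synapses and starts contraction in muscle. Potassium channels repolarize the cell, set how fast it can fire again and hold the resting potential, and HCN channels open on hyperpolarization and drive rhythmic firing. Many of the pore-forming subunits work with accessory subunits that affect where they are placed and how fast they gate.

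Levels are given as FPKM (fragments per kilobase of gene, scaled to the mapped fragments of the library), a unit that allows genes to be compared per length. Channel transcripts were mostly low in the 2 dpf head. Averaged over the 6 libraries, 2 of the 181 genes reached 10 FPKM, 57 lay from 1 to 10 FPKM, 95 from 0.1 to 1 FPKM and 23 below 0.1 FPKM, and 4 (scn4aa, kcnj2b, kcnj14 and kcns3b) were listed at 0 in every library. A mean of at least 1 FPKM was reached by 32.6% of the channel genes and by 47.8% of all genes. The 59 channel genes at or above that mean were tested, and the other 122 were not. The table gives FPKM alone, so the depth behind each value is unknown.

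**Figure D1:**
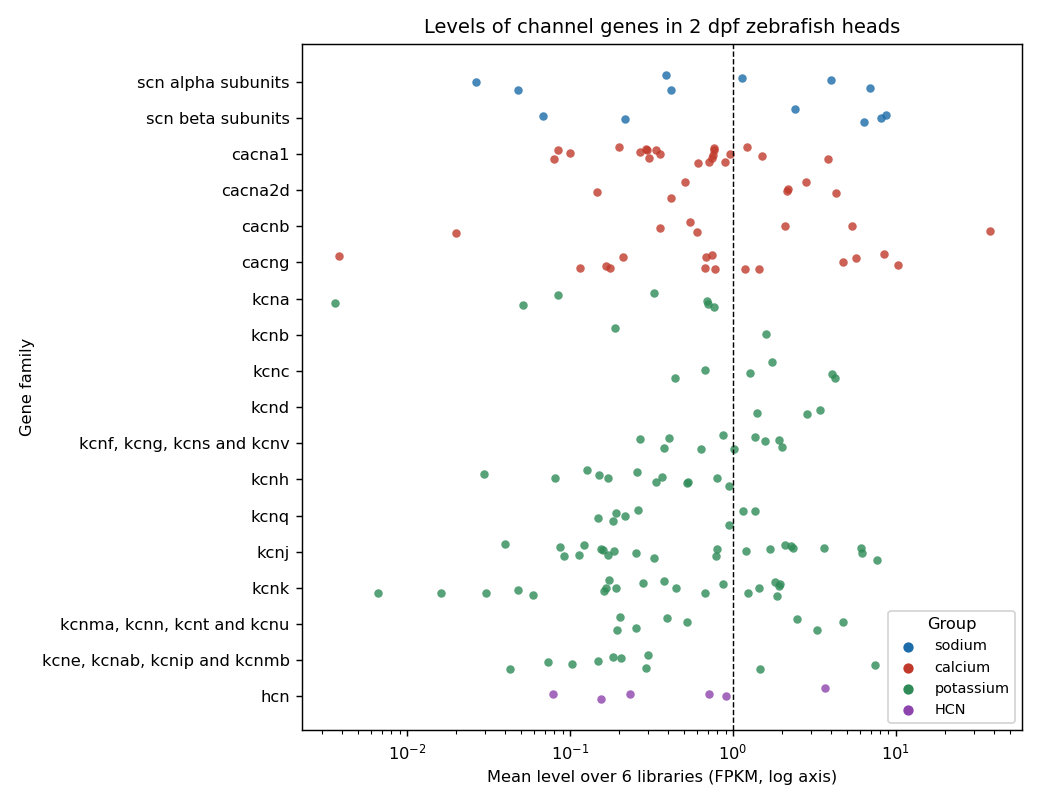
Mean level of each channel gene over the 6 libraries (FPKM, log axis) by gene family. Each point is 1 gene, coloured by group; the dashed line marks the 1 FPKM needed for testing, and the 4 genes at 0 are not drawn. The calcium channel gene cacnb4b stands at 37.6 FPKM, and no kcna or kcnh gene reaches 1 FPKM.

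The gene with the highest level was cacnb4b (ENSDARG00000062174, chromosome 6, 14086688 to 14146979 on GRCz11), whose product is a cytoplasmic beta subunit that brings calcium channels to the membrane. It measured 31.9, 32.8 and 41.6 FPKM in DMSO replicates 1 to 3 and 38.4, 41.3 and 39.7 FPKM under 6PPD replicates 1 to 3. Every one of these values was above every value of the next gene, cacng3b, which encodes an accessory protein of AMPA glutamate receptors and ranged from 9.0 to 13.0 FPKM. From there the order was not resolved by the spread between libraries: cacng3b, the sodium channel beta genes scn1bb and scn3b and the AMPA receptor accessory gene cacng2a overlapped. They were followed by kcnj11l, kcnip1b and scn8aa at means of 7.68, 7.46 and 6.92 FPKM. By mean level, the pore-forming genes among these were kcnj11l, a Kir6.2-like inward rectifier, and scn8aa, a sodium channel alpha subunit, and their ranges overlapped those of the accessory genes scn3b and scn1bb.

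The comparison asked whether channel genes differed between 6PPD and DMSO heads. No channel gene passed the threshold, a limma adjusted p under 0.05 (Benjamini-Hochberg over all 15320 tested genes). The count was 0 of 59 higher and 0 lower, where 3.41% of all tested genes were called, 2.26% higher and 1.15% lower. These were 346 genes higher and 176 lower; the split was 234 and 229 with median-ratio scaling, 270 and 264 with the gene length trend removed and 291 and 259 after quantile normalization. At an unadjusted p under 0.05, 10 channel genes (16.9%) were higher and 0 were lower in 6PPD, against 13.4% and 6.93% of all tested genes (20.3% in both directions together). The smallest adjusted p was 0.106. The 3 libraries of each group did not overlap in 13 genes with higher 6PPD values (22%) and in 1 with lower values (1.69%), against 17.1% and 9.18% of all tested genes (26.3% together). Log2 fold changes (6PPD against DMSO, on log2(FPKM + 1), which understates changes of low genes) ran from -0.27 to 0.53. They were positive in 47 of 59 channel genes (79.7%) and in 61.5% of all tested genes. Among the positive genes, scn8ab, kcnq2b and kcnk1b had control means below 1 FPKM (0.905, 0.889 and 0.997 FPKM). They reached the filter through their 6PPD means (1.35, 1.41 and 1.48 FPKM), so their sign is no separate support. The gene scn8ab is also among the 13 without overlap. The median log2 fold change was 0.22 for the channel genes and 0.06 for all tested genes, and over 4 other scalings the channel median lay between 0.14 and 0.29. On the log2(FPKM + 1) scale the 95% interval lay within 1 in either direction in 58 of 59 genes, the exception being cacnb2a (-0.18 to 1.21). In 21 genes the interval lay within 0.5. Of the 59 genes 57 had means from 1 to 10 FPKM, where the added 1 shrinks changes. These limits therefore do not bound the change in FPKM itself. In bulk heads, a change in the number of cells of a type and a change in RNA per cell cannot be told apart.

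**Figure D2:**
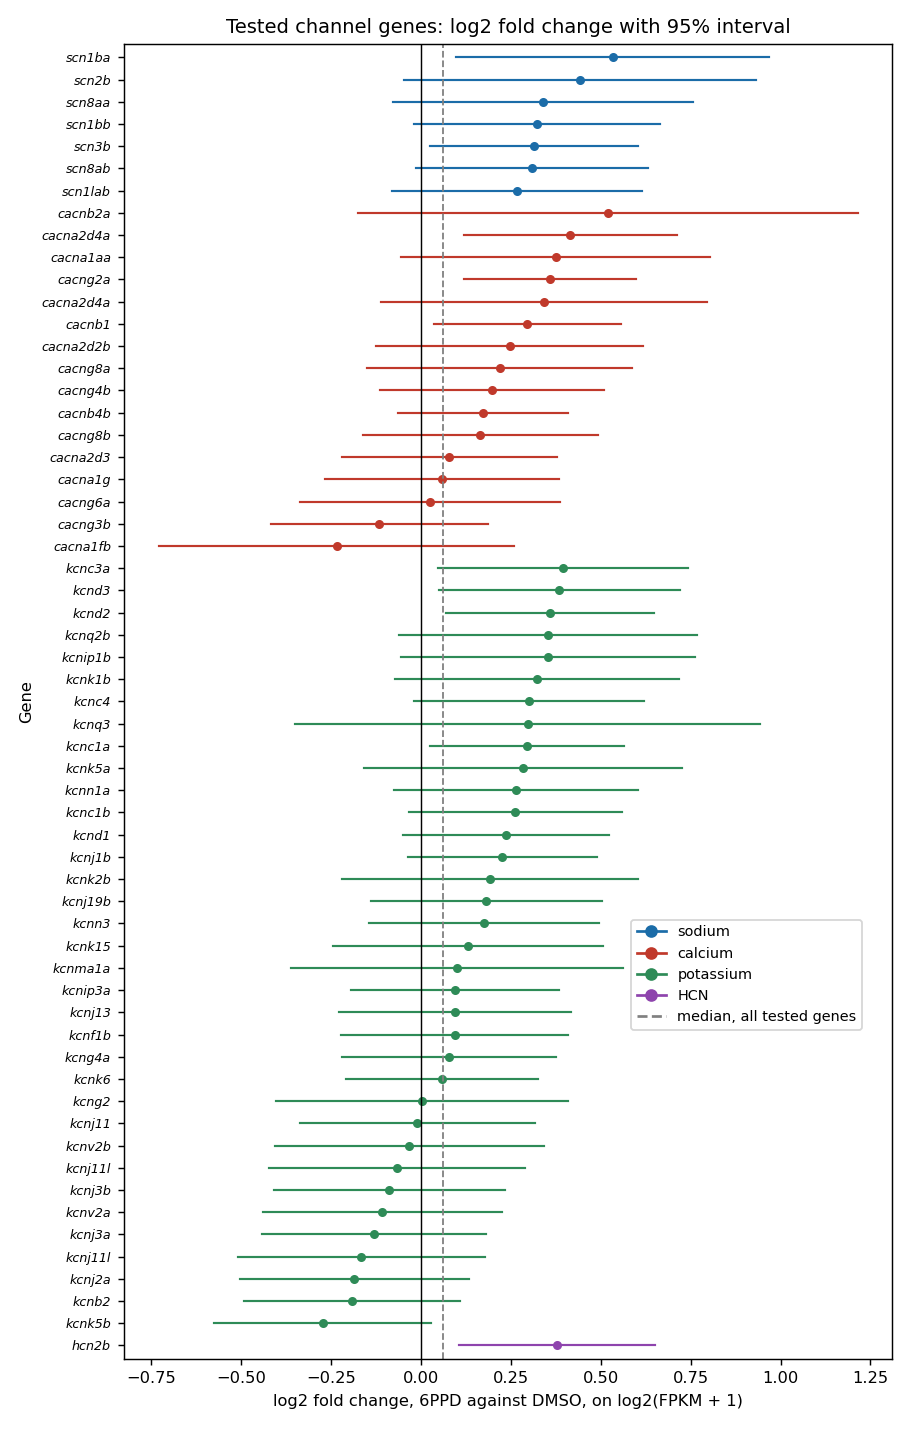
Log2 fold change (6PPD against DMSO, on log2(FPKM + 1)) of the 59 tested channel genes with its 95% interval, sorted within each group; the dashed line is the median of all tested genes, 0.06. All 7 sodium channel genes lie to the right of 0, while the potassium channel genes lie on both sides, and no gene passed the adjusted threshold.

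Sodium channel genes had the highest median of the 3 larger groups. All 7 tested members, of 14, had positive log2 fold changes (0.27 to 0.53, median 0.32), where 61.5% of all tested genes did. None passed in limma (adjusted p from 0.166 to 0.364). At an unadjusted p under 0.05, 2 were higher (28.6%) and 0 lower, against 13.4% and 6.93% of all tested genes. Over 4 other scalings the sodium median was 0.26 to 0.42. With single libraries left out it was 0.25 to 0.49. The highest value was that without DMSO replicate 3, where the median of all tested genes was 0.10. Among the pore-forming alpha subunits, scn8aa (ENSDARG00000005775, chromosome 23, 27251626 to 27345425), which encodes Nav1.6, a channel of the axon initial segment, measured 4.59, 5.13 and 8.59 FPKM in DMSO replicates 1 to 3 and 8.39, 7.17 and 7.65 FPKM under 6PPD. DMSO replicate 3 was above all 6PPD libraries, and the other controls were below them. Its log2 fold change was 0.34 (95% interval -0.08 to 0.76, limma adjusted p = 0.335). Its copy scn8ab stood at 0.905 ± 0.211 FPKM in controls and 1.35 ± 0.176 FPKM under 6PPD (SD, n = 3), without overlap (limma adjusted p = 0.263). With a control mean below 1 FPKM, scn8ab reached the filter through its 6PPD values. The gene scn1lab, whose loss causes seizures in zebrafish larvae, measured 3.44, 2.73 and 4.47 FPKM in controls and 4.55, 3.92 and 4.77 FPKM under 6PPD. Those groups overlapped (limma adjusted p = 0.364). The muscle sodium channel gene scn4ab stood at 0.390 ± 0.0840 FPKM in controls and 0.447 ± 0.0641 FPKM under 6PPD, and its copy scn4aa was listed at 0. On the opposite strand myl4 overlaps scn4ab at a mean of 12.8 FPKM. Whether counting used strand is not stated, so the scn4ab values are uncertain.

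The sodium channel beta subunits are membrane proteins with an immunoglobulin domain that tune gating and hold channels in place. Their highest fold change was that of scn1ba (ENSDARG00000060222, chromosome 16, 41873708 to 41897745), at 3.42, 4.79 and 7.21 FPKM in controls and 7.29, 7.61 and 7.94 FPKM under 6PPD. The groups did not overlap, but DMSO replicate 3 lay just under the lowest 6PPD library. The log2 fold change was 0.53 (95% interval 0.10 to 0.97, limma adjusted p = 0.166). It was the largest among the 59 genes on the log2(FPKM + 1) scale. The added 1 shrinks changes of low genes more, so this rank need not hold in FPKM itself. Over the other scalings cacnb2a ranged from 0.42 to 0.71 and scn1ba from 0.47 to 0.63. The copy scn1bb measured 5.82, 7.58 and 9.76 FPKM in controls and 9.73, 9.34 and 10.1 FPKM under 6PPD, and scn2b 1.53, 1.17 and 3.10 FPKM in controls and 3.2, 2.86 and 2.49 FPKM under 6PPD. In both genes DMSO replicate 3 lay among the 6PPD libraries and the others below them. The gene scn3b stood at 7.12 ± 1.31 FPKM in controls and 9.01 ± 0.530 FPKM under 6PPD (limma adjusted p = 0.212).

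Of the 50 calcium channel genes 16 were tested, and none passed in limma. At an unadjusted p under 0.05, 3 were higher (18.8%) and 0 lower, against 13.4% and 6.93% of all tested genes. The median log2 fold change was 0.21, with 14 of 16 positive, and it was 0.13 without DMSO replicate 1 and 0.36 without DMSO replicate 3. The pore-forming alpha1 subunits were low: 3 of 21 cacna1 genes reached a mean of 1 FPKM over the 6 libraries. The highest was cacna1aa (ENSDARG00000037905, chromosome 3, 33773156 to 33901483), the P/Q-type channel of fast synapses, at 2.75, 2.37 and 4.72 FPKM in controls and 4.91, 4.41 and 3.92 FPKM under 6PPD. Here again DMSO replicate 3 lay inside the 6PPD range, and the log2 fold change was 0.37 (95% interval -0.06 to 0.80, limma adjusted p = 0.304). The T-type gene cacna1g was at 0.06 (limma adjusted p = 0.846), a value that was -0.02 after quantile normalization. The L-type gene cacna1fb had 1.43 ± 0.783 FPKM in controls and 1.01 ± 0.269 FPKM under 6PPD. The other L-type genes lay below the filter, among them cacna1c of heart and brain (0.672 ± 0.535 FPKM in controls and 0.864 ± 0.226 FPKM under 6PPD), cacna1da of hair cells (0.672 ± 0.234 and 0.743 ± 0.0570 FPKM), cacna1fa of photoreceptors (0.823 ± 0.538 and 0.702 ± 0.340 FPKM) and cacna1sb of skeletal muscle (0.277 ± 0.127 and 0.314 ± 0.0247 FPKM). On the opposite strand suv39h1b overlaps cacna1sb at a mean of 12.3 FPKM, so the cacna1sb values are uncertain. The N-type gene cacna1ba had 0.684 ± 0.231 and 0.817 ± 0.0474 FPKM.

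The smallest p of all channel genes belonged to an accessory gene, cacng2a (ENSDARG00000032565, chromosome 3, 29714775 to 29845175). Its product is named a calcium channel gamma subunit, and the mammalian protein, stargazin, is best known for carrying AMPA receptors to synapses. Levels were 6.42, 7.52 and 7.80 FPKM in controls and 8.87, 9.68 and 10.1 FPKM under 6PPD, so that every 6PPD library was above every control. The log2 fold change was 0.36 (95% interval 0.12 to 0.60, limma adjusted p = 0.106, unadjusted p = 0.00776). A gene on the opposite strand overlaps it at a mean of 2.03 FPKM, and while the library kit marked strand, its use in counting is not stated. Among the other gamma genes cacng3b, cacng8a and cacng8b were at -0.12, 0.22 and 0.16, and cacng3b was at 0.01 without DMSO replicate 3. Of the alpha2delta subunits, which carry channels to the surface, cacna2d4a is split over 2 table entries of the same symbol on chromosome 4. The entry at 20271463 to 20292853 measured 1.41, 1.78 and 1.93 FPKM in controls and 2.82, 2.40 and 2.60 FPKM under 6PPD, without overlap (log2 fold change 0.42, limma adjusted p = 0.122). The entry at 20237461 to 20243021 overlapped between groups (0.34, limma adjusted p = 0.372). The alpha2delta gene of the highest level, cacna2d3, was at 0.08, and at -0.00098 after quantile normalization. Of the beta subunits, cacnb1, part of the skeletal muscle channel, did not overlap (4.75, 4.11 and 5.24 FPKM in controls, 5.84, 5.74 and 6.37 FPKM under 6PPD, limma adjusted p = 0.193), and cacnb4b did (log2 fold change 0.17, limma adjusted p = 0.386).

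Potassium channel genes had the lowest median of the 3 larger groups, 0.13, with 25 of 35 tested members positive. None of the 35 passed in limma. At an unadjusted p under 0.05, 4 were higher (11.4%) and 0 lower, against 13.4% and 6.93% of all tested genes. The share of higher genes was thus below that of all tested genes. Over the 4 members with a mean of at least 5 FPKM the median was -0.10. These were kcnip1b, kcnj3a and the 2 entries of kcnj11l, which overlap each other and have uncertain values. Over all tested members the median was 0.07 without DMSO replicate 1 and 0.21 without DMSO replicate 3. The 4 genes with small unadjusted p all encode the fast A-type and Shaw channels that speed repolarization. All 3 Shal (Kv4) genes were tested, and their groups did not overlap, as in 17.1% of all tested genes with higher 6PPD values; the family was singled out after its values were seen. The gene kcnd2 (ENSDARG00000032799, chromosome 4, 10365857 to 10562174) measured 2.00, 2.36 and 2.78 FPKM in controls and 3.18, 3.41 and 3.36 FPKM under 6PPD (log2 fold change 0.36, 95% interval 0.07 to 0.65, limma adjusted p = 0.162). The gene kcnd3 measured 2.73, 2.23 and 3.55 FPKM in controls and 3.58, 4.33 and 4.0 FPKM under 6PPD (0.39, limma adjusted p = 0.187), and kcnd1 stood at 1.2 ± 0.0992 and 1.6 ± 0.151 FPKM (limma adjusted p = 0.328). Each 6PPD library was above each control in these genes, by a narrow margin in kcnd3. Their cytoplasmic partner kcnip1b, a KChIP calcium sensor that binds Kv4 channels, stood at 6.49 ± 1.81 FPKM in controls and 8.43 ± 1.33 FPKM under 6PPD, with overlap (limma adjusted p = 0.310).

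Of the 6 Shaw (Kv3) genes, which serve fast-firing neurons, 4 were tested. In 3 the groups did not overlap, with higher 6PPD values, against 17.1% of all tested genes. This family was likewise singled out after its values were seen. The gene kcnc1a (ENSDARG00000051852, chromosome 7, 33028452 to 33088144) measured 3.64, 3.34 and 4.12 FPKM in controls and 4.92, 5.06 and 4.29 FPKM under 6PPD (0.29, 95% interval 0.02 to 0.57, limma adjusted p = 0.209), and kcnc3a 1.47, 0.970 and 1.64 FPKM in controls and 2.11, 2.39 and 1.77 FPKM under 6PPD (0.39, limma adjusted p = 0.193). All 6PPD libraries were above all controls in both. The gene kcnc4 stood at 1.03 ± 0.228 and 1.5 ± 0.176 FPKM, and kcnc1b at 3.60 ± 0.535 and 4.50 ± 0.500 FPKM with overlap. No Shaker (Kv1, kcna) or eag-type (kcnh) gene reached a mean of 1 FPKM over the 6 libraries. The highest of them were kcnh3 (0.848 ± 0.350 FPKM in controls, 1.04 ± 0.242 FPKM under 6PPD), kcnh7 (0.686 ± 0.181 and 0.910 ± 0.152 FPKM), kcna2b (0.640 ± 0.305 and 0.891 ± 0.0863 FPKM) and kcna1a (0.616 ± 0.392 and 0.798 ± 0.139 FPKM). The cardiac repolarization gene kcnh6a had 0.321 ± 0.0625 and 0.416 ± 0.130 FPKM. Of the M-current genes, which restrain repetitive firing, kcnq2b (0.35) and kcnq3 (0.30) were tested and not called (limma adjusted p = 0.315 and 0.586); kcnq3 rested on 6PPD replicate 3 at 3.08 FPKM and was at -0.06 without it. The gene kcnq2a had 0.25 ± 0.0381 and 0.271 ± 0.0760 FPKM. In kcnq5a the DMSO libraries were uneven, at 0.0789, 0.0362 and 0.888 FPKM, and those of 6PPD were at 0.0695, 0.0480 and 0.0364 FPKM. The Shab gene kcnb2 was at -0.19 (limma adjusted p = 0.447). Of the silent subunits that modify other Kv channels, kcnf1b was at 0.09 and kcnv2b, a photoreceptor gene, at -0.03, and 0.0027 after rescaling to TPM.

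Inward rectifiers (kcnj), which let potassium in more readily than out and hold the resting potential, had a median of -0.07, with 3 of 9 tested members positive. That direction rested on single libraries: the median was 0.08 with 6 of 9 positive without DMSO replicate 3, and 0.02 with 5 of 9 positive without 6PPD replicate 2. The gene kcnj3a, a subunit of the G-protein-gated channels through which transmitters silence neurons, measured 5.13, 7.71 and 6.60 FPKM in controls and 6.15, 5.43 and 5.73 FPKM under 6PPD. All 6PPD libraries lay inside the range of the controls (-0.13, limma adjusted p = 0.622). The ATP-sensitive channel gene kcnj11 was at -0.01 (limma adjusted p = 0.976) and was positive in 3 other settings. The symbol kcnj11l covers 2 entries on chromosome 25 that overlap on opposite strands (7670683 to 7676816 and 7675629 to 7686269), so their values are uncertain. They were at -0.07 and -0.17, and the first was at 0.08 without DMSO replicate 3. The renal-type gene kcnj1b did not overlap (3.25 ± 0.134 FPKM in controls, 3.97 ± 0.391 FPKM under 6PPD, limma adjusted p = 0.309), and kcnj13, the Kir7.1 gene behind a zebrafish stripe mutant, was at 0.09 (limma adjusted p = 0.737).

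Among the leak channels (kcnk) lay the sole tested channel gene whose 6PPD libraries were all below the controls, kcnk5b (ENSDARG00000012390, chromosome 20, 9223514 to 9239037), known for overgrown fins when its channel is overactive. It measured 2.06, 2.11 and 2.19 FPKM in controls and 1.96, 1.38 and 1.45 FPKM under 6PPD (-0.27, 95% interval -0.58 to 0.03, limma adjusted p = 0.287). Its copy kcnk5a was at 0.28 with overlapping groups (limma adjusted p = 0.448). The leak channel genes kcnk6 and kcnk15 were at 0.06 and 0.13, and were negative in 2 and 1 other settings. Of the calcium-activated channels, which end bursts of firing, kcnn1a measured 4.22 ± 1.08 FPKM in controls and 5.2 ± 0.327 FPKM under 6PPD and kcnma1a, the large-conductance BK channel gene, 3.18 ± 1.27 and 3.37 ± 0.535 FPKM (limma adjusted p = 0.358 and 0.813).

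Of the 6 HCN genes 1 was tested. The gene hcn2b (ENSDARG00000061665, chromosome 22, 18951096 to 19007968) measured 2.96, 2.97 and 3.23 FPKM in controls and 4.14, 4.85 and 3.84 FPKM under 6PPD. All 6PPD libraries were above all controls, and the controls were close together. The log2 fold change was 0.38 (95% interval 0.11 to 0.65, limma adjusted p = 0.125), and 0.30 to 0.47 over the other settings in which it was tested. The other 5 lay below the filter, among them hcn4, the pacemaker gene of the heart (0.0671 ± 0.0258 FPKM in controls, 0.0909 ± 0.0577 FPKM under 6PPD).

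**Figure D3:**
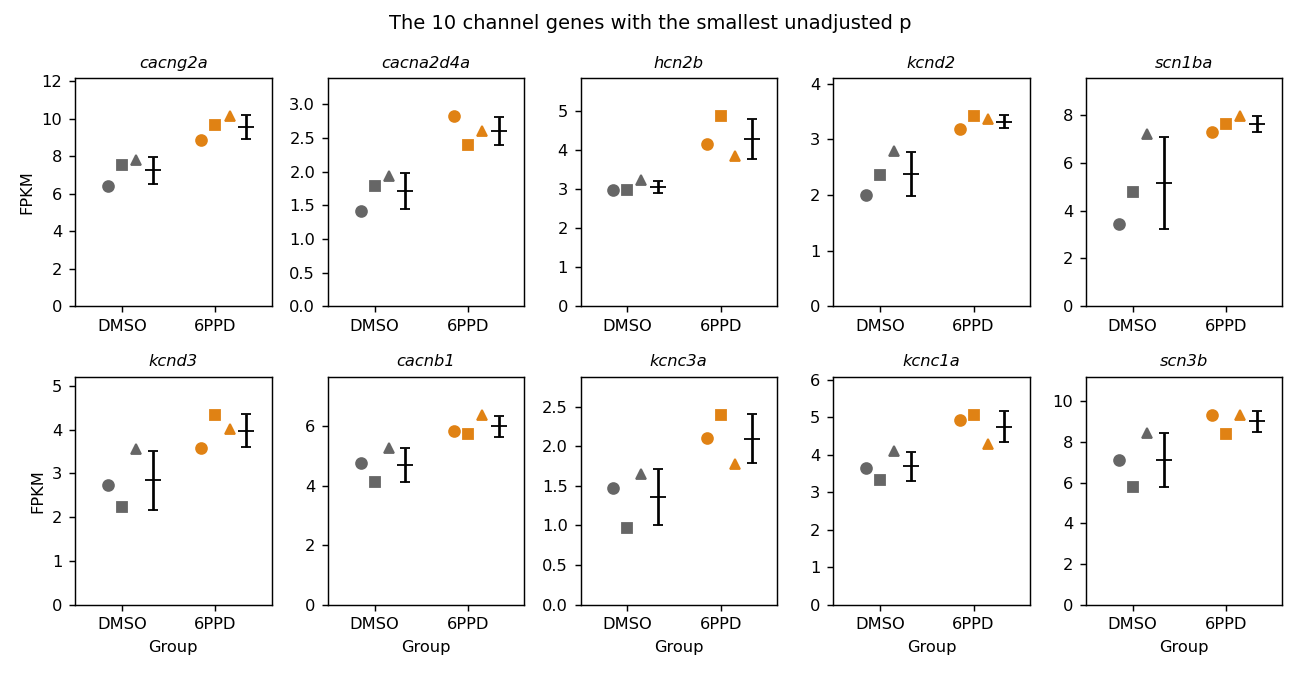
FPKM of the 10 channel genes with the smallest unadjusted p. Circles, squares and triangles are replicates 1, 2 and 3, and the bars are mean ± SD (n = 3 per group). In 9 of the 10 genes every 6PPD library lies above every DMSO library, scn3b being the exception, and the DMSO triangle is the highest control in each. Choosing genes by p in these same libraries favours such separation, and none of them was called. Of all tested genes, 17.1% had every 6PPD library above every DMSO library.

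DMSO replicate 3 stood apart from the other controls in these genes. It was the highest of the 3 controls in 52 of the 59 tested channel genes (88.1%) and in 51.1% of all tested genes. It was the highest control in 7 of 7 sodium, 15 of 16 calcium and 29 of 35 potassium channel genes. Summed over all 181 genes, the DMSO libraries held 215, 231 and 307 FPKM and the 6PPD libraries 295, 286 and 287 FPKM. DMSO replicates 1 and 2 were both below all 6PPD libraries in 35 of 59 channel genes (59.3%) and in 34.2% of all tested genes. With DMSO replicate 3 left out, 57 channel genes were tested and 6 were called higher and 0 lower in limma (10.5%, against 5.27% higher and 2.13% lower, or 7.4% in all, of the genes tested in that fit). These were scn1ba (log2 fold change 0.77, limma adjusted p = 0.0220), scn8aa (0.58, adjusted p = 0.0271), cacnb2a (0.93, adjusted p = 0.0284), scn2b (0.71, adjusted p = 0.0293), cacna1aa (0.60, adjusted p = 0.0349) and scn1bb (0.49, adjusted p = 0.0499). In 5 of the 6, the left-out library lay at or above the lowest 6PPD library, and in scn1ba just under it. It lay at or above the lowest 6PPD library in 72.9% of the tested channel genes and in 71.1% of all tested genes. The gene cacnb2a measured 0.773, 0.884 and 3.27 FPKM in controls and 1.80, 2.56 and 3.21 FPKM under 6PPD, so its DMSO replicate 3 was above every 6PPD library. The calls went from 0 to 6 with that library out, and stayed at 0 with any other single library out. Why the library differs was not tested.

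**Figure D4:**
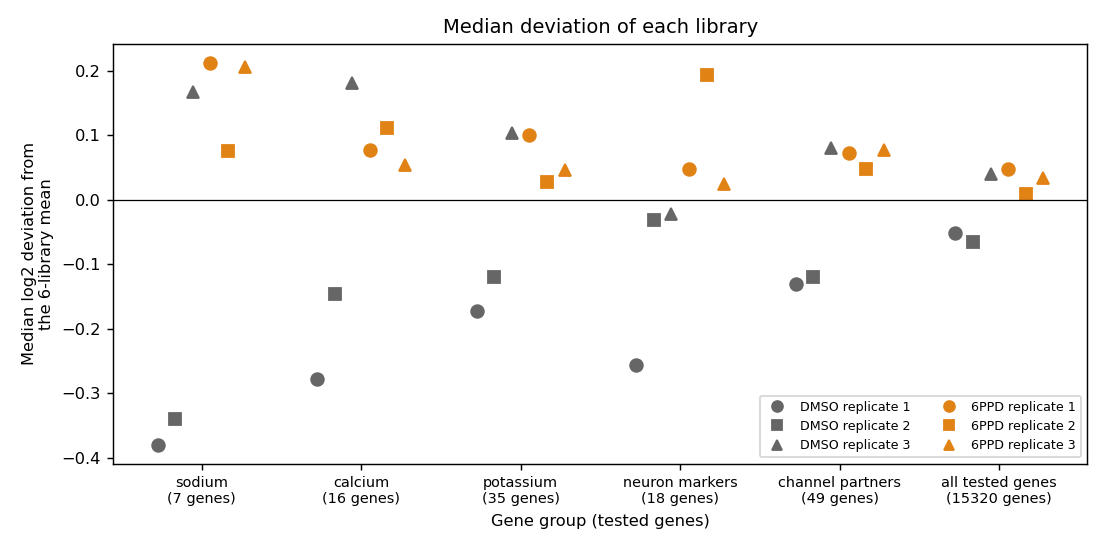
Median over the tested genes of each group of the log2(FPKM + 1) deviation from the 6-library mean, for each library. In the sodium, calcium and potassium channel genes DMSO replicate 3 (grey triangle) lies with the 6PPD libraries, at 0.17, 0.18 and 0.10, and it also does so in the channel partners (0.08) and in all tested genes (0.04), while in neuron markers it lies at -0.02, with DMSO replicate 2.

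Markers of neurons, the cells in which most of these channels work, were present at high levels. Of 18 neuron markers 2 were called higher (elavl3 and snap25a) and 0 lower, where 2.26% and 1.15% of all tested genes were. The median log2 fold change of the markers was 0.21, and that of the channel genes 0.22. These medians are not like for like, since the added 1 shrinks changes of low genes more. Of the 18 markers 17 had means of at least 10 FPKM, while 57 of the 59 channel genes had means from 1 to 10 FPKM. Of the 18 markers 13 were positive and 5 negative, among the latter elavl4 (-0.34) and snap25b, the copy of snap25a (-0.23). The 2 calls were 0 in 6 of the other settings, among them no filter on low values and the removal of DMSO replicate 2. Without DMSO replicate 3 they were 5 higher (27.8%) and 1 lower (elavl4, a neuronal RNA-binding protein gene), against 5.27% and 2.13% of all genes in that fit. The summed level of the list was 1620 to 1812 FPKM in controls and 1785 to 1981 FPKM under 6PPD, and no marker was at 0 in all libraries. Lists of several other cell types had negative medians. Photoreceptor markers had a median of -0.43, with 2 of 9 called lower, against 1.15% of all tested genes. Skin markers had a median of -0.36 and radial glia and oligodendrocyte markers -0.19, with 0 called in each of these 2 lists. In the skin list 7 of 8 markers were negative, while tp63 was positive (0.30, limma adjusted p = 0.154), with groups that did not overlap. Without DMSO replicate 3, 2 of 8 skin markers (the keratin genes krt17 and krt5), 2 of 8 glial markers (gfap and fabp7a) and 2 of 8 photoreceptor markers (arr3a and gnat1) were called lower. The summed level of the skin markers was 4145 to 7312 FPKM in controls and 3443 to 4365 FPKM under 6PPD. That of the glial markers was 1406 to 1612 FPKM and 1164 to 1239 FPKM, and that of the photoreceptor markers 230.3 to 344 FPKM and 218 to 247 FPKM. A few genes made up most of these sums. By mean over all libraries they were krt4 and cyt1 in skin (2451 and 1541 FPKM), fabp7a in glia (1062 FPKM) and crx in photoreceptors (176 FPKM). Skeletal muscle markers summed to 506 to 530 and 364 to 592 FPKM (median -0.20), cardiac muscle to 7.59 to 9.60 and 5.30 to 8.62 FPKM (-0.17), ionocytes to 95.9 to 103 and 87.6 to 98.1 FPKM (-0.08), and hair cells to 34.0 to 36.9 and 36.1 to 38.1 FPKM (0.03), with 0 called in each. Most of the ionocyte sum came from 1 gene, atp6v1aa, at a mean of 87.0 FPKM over all libraries. The low markers nppb (cardiac), slc9a3.2 (ionocytes) and tmc2b (hair cells) were at 0 in 1 or 2 libraries, and no marker was at 0 in all. The part of these cell types in the channel values was not tested.

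Genes that anchor, modify or share the work of the channels were not called either. Of 59 listed partner genes 49 table entries were tested, and 0 were called higher and 0 lower in limma, where 2.26% and 1.15% of all tested genes were. At an unadjusted p under 0.05, 6 were higher (12.2%) and 2 lower (4.08%), against 13.4% and 6.93% of all tested genes. The median of the partners was 0.15, and that of all tested genes 0.06. The smallest p was that of fgf12a, whose product binds the tail of sodium channels, at 1.83, 2.73 and 1.39 FPKM in controls and 5.25, 4.46 and 2.64 FPKM under 6PPD (0.77, limma adjusted p = 0.101). The highest control lay just above the lowest 6PPD library. The gene gem, a small GTPase that blocks calcium channels through their beta subunits, measured 2.00, 3.38 and 4.25 FPKM in controls and 1.84, 1.56 and 1.78 FPKM under 6PPD, all below the controls (-0.59, limma adjusted p = 0.132). It was the 1 partner called lower without DMSO replicate 1. Without DMSO replicate 3, 4 of 49 partners (8.16%) were called higher, against 5.27% of all genes in that fit. These were the synaptic vesicle gene vamp2, the sodium pump subunit gene atp1b2a, the KATP channel subunit gene abcc8 and the splicing factor gene rbfox1. The gene vamp2 is also on the list of neuron markers, so its call counts in both lists.

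The duplicated genome of teleost fish left many of these genes as copies named a and b, and the copies often differed in level. In 51 pairs with a single entry for each copy, both copies reached a mean of 1 FPKM in 7 pairs, 1 copy did in 19 and neither did in 25. The same copy was higher in all 6 libraries in 37 pairs. The ratio of the means was at least 10 in 11 pairs, and in 3 further pairs 1 copy was listed at 0. Large gaps were those of cacnb4b over cacnb4a (37.6 and 0.0201 FPKM), scn1lab over scn1laa (3.98 and 0.0266 FPKM), cacng3b over cacng3a (10.4 and 0.116 FPKM) and cacna1aa over cacna1ab (3.85 and 0.304 FPKM). Near-equal pairs were kcnc1a and kcnc1b (4.23 and 4.05 FPKM), kcnk5b and kcnk5a (1.86 and 1.81 FPKM) and cacng8b and cacng8a (5.67 and 4.76 FPKM). Of the 7 pairs with both copies tested, 6 had fold changes of the same sign, and kcnk5a and kcnk5b had opposite signs, neither called. Without DMSO replicate 3 the signs matched in 4 of 7 pairs. Fragments of near-identical copies may have been divided between them in counting. This applies also to kcnj1a.1 to kcnj1a.6, a row of tandem copies on chromosome 18 that each stayed below 1 FPKM, and to cacna1db, split over 4 entries on chromosome 8.

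**Figure D5:**
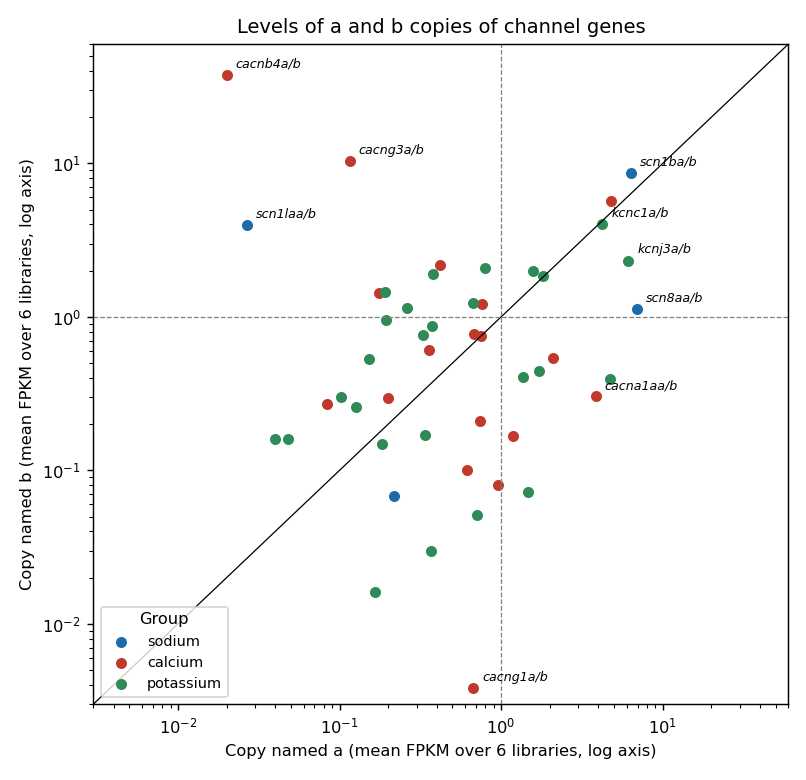
Mean level over the 6 libraries (FPKM, log axes) of the copy named a against the copy named b, for pairs of channel genes in which both were above 0. The solid line marks equal levels and the dashed lines 1 FPKM. Points far from the line, such as cacnb4a/b and scn1laa/b, are pairs carried mainly by 1 copy.

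A fit without the filter took in 177 channel genes. Of these, 0 passed in limma after adjustment, where 13 higher and 13 lower of the 26983 genes in that fit did. With so few calls, the count of 0 does not set the channel genes apart. At an unadjusted p under 0.05, 20 were higher (11.3%) and 6 lower (3.39%), against 10.1% and 5.06% of all genes in that fit. Examples chosen after their values were seen are kcnn2, a small-conductance calcium-activated channel gene, and cacnb2b, a calcium channel beta subunit gene. The first measured 0.425, 0.306 and 0.244 FPKM in controls and 0.742, 0.682 and 0.712 FPKM under 6PPD, and the second 0.696, 0.589 and 0.798 FPKM in controls and 0.330, 0.427 and 0.409 FPKM under 6PPD. In both the groups did not overlap, in opposite directions. A gene on the strand opposite to cacnb2b overlaps it at a mean of 0.406 FPKM.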

How the data were processed

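Heads of zebrafish embryos were measured by poly(A) RNA sequencing in 6 libraries, grouped by the treatment in their labels. The authors deposited one FPKM value per gene and library. The build GRCz11 and the tools HISAT2, StringTie, featureCounts and fastp are listed, per the submitters' processing notes, without versions, roles or order. FPKM is scaled to library and gene length but not to a common sum (434258 to 472121 per library), so a few high genes can shift all others. Values of low genes were whole multiples of a candidate single fragment in 23.3% to 25.7% of cases (tolerance 0.1, where an arbitrary step gives 20%), so whole reads could not be rebuilt and count models were not applied.

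The 15320 of 32057 genes whose mean reached 1 FPKM entered limma 3.58.1 (R 4.3.3) as log2(FPKM + 1) (intensity trend, 6PPD against DMSO, no further terms). They were called at a Benjamini-Hochberg adjusted p under 0.05. The procedure was also run on simulated data with independent noise, which cannot show how it acts when 1 library stands apart. Errors are SD over 3 libraries; p-values measure the spread between pools called biological replicates. Members, lists and alternatives were chosen with earlier results of these data known. Named are the 10 smallest p, the 2 highest genes of each family and 29 genes listed by name, some of which are not reported here; genes called without DMSO replicate 3, genes whose groups did not overlap and other examples were added after their values were seen. Alternatives were the pseudocount, the filter, 4 scalings, no trend, the replicate block and leaving out each library.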

Additional observations from a re-analysis of the deposited data

How the results depend on the processing

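No channel gene was called, higher or lower, under any alternative except the removal of DMSO replicate 3 (range over the single libraries left out: 0 to 6 higher). Without a filter on low values the median log2 fold change of the channel genes was 0.059, and it was 0.14 to 0.33 with single libraries left out. Over all tested genes, calls were 13 higher and 13 lower without a filter and 214 higher without an intensity trend, and 85 to 805 higher and 72 to 325 lower with single libraries left out. The cause was not tested.

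Some small fold changes took the opposite sign. After quantile normalization cacna1g was at -0.024, cacna2d3 at -0.00098, kcnip3a at -0.0013 and kcnk6 at -0.021. With the gene length trend removed cacna1g was at -0.037, cacna2d3 at -5.5e-05 and kcnk6 at -0.019. Rescaled to TPM, kcnv2b was at 0.0027 and kcnj11 at 0.031. With single libraries left out, cacna1g ranged from -0.0060 to 0.18, cacna2d3 from -0.025 to 0.18, cacng3b from -0.23 to 0.014, kcnv2b from -0.17 to 0.11, the kcnj11l entry at 7670683 from -0.22 to 0.084, kcnk15 from -0.041 to 0.27, kcnma1a from -0.10 to 0.33, kcnq3 from -0.058 to 0.51 and kcnj11 from -0.10 to 0.11.

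Replicate numbers did not pair the libraries: same-numbered deviations correlated at 0.0301, 0.181 and -0.0257, and not every library correlated best with its own number. With the replicate block, 0 channel genes were called higher and 0 lower, and 281 of all tested genes were called higher and 174 lower. With 3 libraries a group and depth unknown, differences of low genes may be missed, and 122 channel genes were not tested.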
